A study of Mus musculus with 8 samples.

Results

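The genes described here encode the nuclear part of the mitochondrial respiratory chain, measured in breast tumors of mice with and without miR-21. They were taken as every gene whose single symbol in the array annotation begins with Nduf, Uqcr or Cox4 to Cox8, or is *Sdha*, *Sdhb*, *Sdhc* or *Sdhd*. The rule found 70 genes among the 23152 genes with a single symbol, on 503 probe sets. Of the 70 genes, 65 encode chain subunits, with 35 in complex I, 4 in complex II, 7 in complex III and 19 in complex IV. Another 4 encode complex I assembly factors (*Ndufaf1*, *Ndufaf2*, *Ndufaf3* and *Ndufaf4*). The remaining 1, *Cox4nb*, is now named *Emc8* and encodes a protein of the endoplasmic reticulum. *Ndufa4* and its relative *Ndufa4l2* were counted with complex IV, where the *Ndufa4* protein is found. *Cox6c* and *Uqcr10* lay only on probe sets that the annotation gives to several genes and were left out. *Ndufb4* and *Uqcrb* kept 1 probe set each. Chain genes outside the rule, such as the subunits encoded in mitochondrial DNA, appear only as lists for comparison. Many of these genes have near-identical processed copies in the genome that a probe set can also read, and how far this touched the levels is uncertain.

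The respiratory chain passes electrons through a row of protein complexes in the inner mitochondrial membrane. Complex I takes them from NADH and complex II from succinate, ubiquinone carries them to complex III, cytochrome c carries them to complex IV, and complex IV hands them to oxygen. Complexes I, III and IV pump protons, and ATP synthase uses the resulting gradient to make ATP. Most subunits are encoded in the nucleus and made in nearly every cell, a few core subunits are encoded in mitochondrial DNA, and several complex IV subunits come in alternative isoforms that are restricted to muscle, brown fat, testis or cells under low oxygen.

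The study asked how loss of miR-21, alone and together with radiation, changes gene expression in breast tumors. The tumors were irradiated miR-21-/-, irradiated miR-21+/+, untreated miR-21-/- and untreated miR-21+/+ primary tumors of the mammary fat pad, with 2 arrays in each of the 4 groups. All came from female mice that carried the MMTV-PyMT transgene, in which the mouse mammary tumor virus promoter drives the polyomavirus middle T oncogene in mammary epithelium, and the miR-21 deletion was present in every cell of the mouse. According to the sample labels, mice were followed for 18 weeks or to a humane end point, irradiation was 8 Gy at a tumor volume of 1000 mm3, and tumors then grew to 2000 mm3. The methods text gives a lower dose and a figure legend an earlier time of collection, so dose and timing are not settled. The ages of the mice and the pooling of tumors were not stated, and nothing says that the arrays of a group came from separate mice, so the p-values below measure only the spread between these arrays. In bulk tumor RNA, fewer cells of a type and less RNA per cell cannot be told apart.

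The values were log2 signals, averaged over the probe sets of each gene, whose precision is set by the number of arrays, since array signals carry no depth. The median level of all genes was between 5.08 and 5.16 on every array. The only probe set annotated to the deleted miR-21, which it shares with *Vmp1*, read 1.69 and 1.97 in irradiated miR-21-/- tumors, against 2.75 and 3.08 in irradiated miR-21+/+ tumors. It read 2.022 and 1.998 in untreated miR-21-/- tumors and 2.50 and 2.34 in untreated miR-21+/+ tumors, so all 4 miR-21-/- arrays were lower than all 4 miR-21+/+ arrays. Irradiated miR-21-/- replicate 1 stood apart. Over all genes it correlated with the other arrays at 0.898 to 0.915, and it was the highest of the 8 arrays in all 16 markers of white adipocytes on the list, with a mean level of 10.30 against 4.48 to 5.26 on the other arrays. Markers of luminal epithelium were lowest there in 16 of 20 genes, with a mean level of 7.39 against 8.32 to 8.85 elsewhere. Epithelial *Epcam* was still measured on this array at 8.16, against 9.61 to 9.86 elsewhere. Results that rest on this array are given with and without it.

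The main pattern among the respiratory chain genes was that this array held the highest level of most of them, while the other 7 arrays, including the second irradiated miR-21-/- tumor, lay close together. Irradiated miR-21-/- replicate 1 was above all 7 other arrays in 56 of the 70 genes (80%), against 20.3% of all genes, and was below all others in none of the 70, against 24.8% of all genes. The median gene was 0.51 higher (log2) on this array than the median of the other 7. Replicate 2 was below the 6 arrays of the other groups in 22 of the 70 genes (31.4%, against 17.1% of all genes) and above them in 5 (7.14%, against 15.7%). Replicate 1 was higher than replicate 2 in 61 of 70 genes, and the median absolute difference between the 2 was 0.67, against 0.18 in irradiated miR-21+/+, 0.15 in untreated miR-21-/- and 0.22 in untreated miR-21+/+ tumors. Over the other 7 arrays the median range of a chain gene was 0.53, against 0.65 for all genes, and 6 of the 70 ranged over more than 1 (*Cox8b*, *Uqcrb*, *Ndufb9*, *Cox6b2*, *Cox6a2* and *Ndufa4l2*). Of the 503 probe sets of these genes, 423 (84.1%) lay above the median of the other arrays on replicate 1 and 315 (62.6%) above all of them. The same share over all probe sets was not counted, and probe sets of the same gene are not independent. The white adipocyte, luminal and other markers given above and below moved with this array, and their part in its chain gene levels was not tested.

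**Figure D1:**
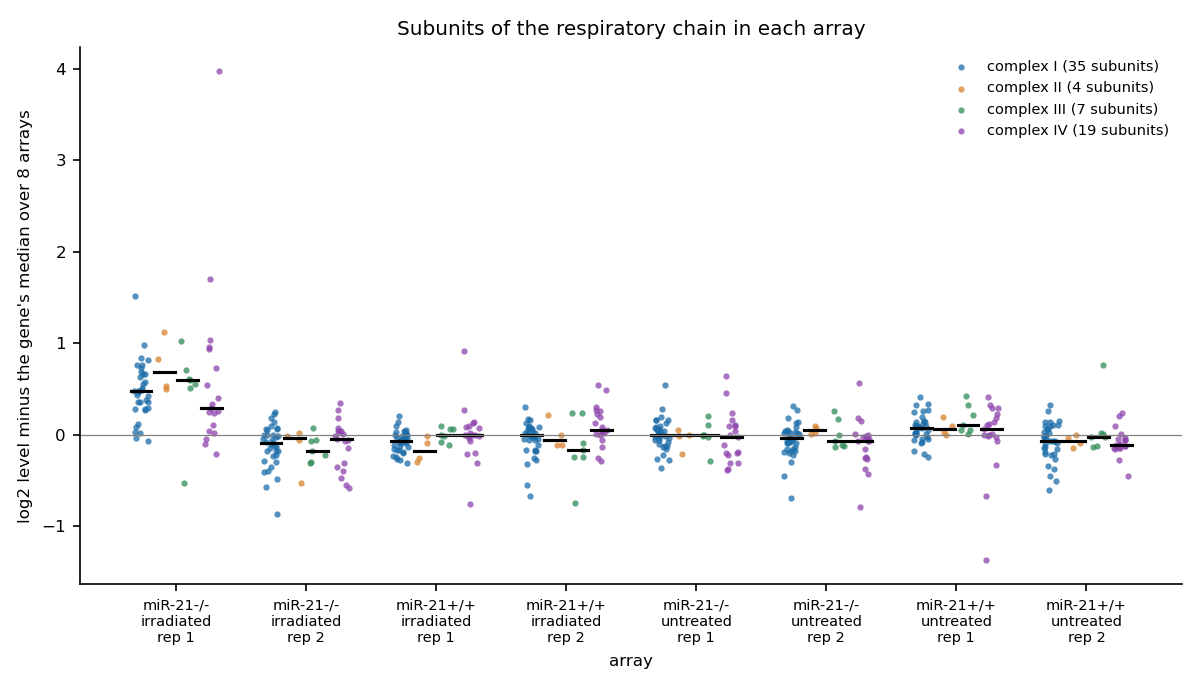
Deviation of each of the 65 chain subunits (1 point per subunit) from its own median over the 8 arrays, in log2 units. Points are given for each array by complex, with irradiated miR-21-/- arrays to the left and bars at the median of each complex. The assembly factors and *Cox4nb* are not drawn, but the values that follow include them. The median over all 70 genes was 0.48 on irradiated miR-21-/- replicate 1, −0.07 on replicate 2, and between −0.07 and 0.09 on the other 6 arrays.

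All 4 genes of complex II, the citric acid cycle enzyme that feeds succinate electrons into the chain, were highest on replicate 1, by a median of 0.71 over the other arrays. *Sdha*, the flavoprotein that oxidizes succinate, was at 9.41 and 8.28 in irradiated miR-21-/- tumors, 8.28 and 8.51 in irradiated miR-21+/+ tumors, 8.08 and 8.30 in untreated miR-21-/- tumors, and 8.49 and 8.20 in untreated miR-21+/+ tumors. *Sdhb*, the iron-sulfur subunit, was at 7.98 and 7.16 in irradiated miR-21-/- tumors, 7.06 and 7.04 in irradiated miR-21+/+, 7.15 and 7.24 in untreated miR-21-/-, and 7.14 and 7.12 in untreated miR-21+/+ tumors. In both genes 1 array was high and the other 7 lay within a narrow band, which for *Sdhb* placed all 4 miR-21-/- arrays just above all 4 miR-21+/+ arrays. The membrane anchors *Sdhc* and *Sdhd* were 0.59 and 0.50 above the median of the other arrays. *Sdhd* was lowest of all on replicate 2, at 7.60.

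In complex I, 29 of 35 genes were highest on replicate 1, including all 6 measured core subunits, most of which carry the flavin or iron-sulfur clusters, and 23 of 29 accessory subunits. *Ndufs1*, the largest iron-sulfur subunit, was at 8.20 and 7.21 in irradiated miR-21-/- tumors, 7.10 and 7.39 in irradiated miR-21+/+, 7.22 and 7.15 in untreated miR-21-/-, and 7.32 and 7.22 in untreated miR-21+/+ tumors. *Ndufs7*, which carries the last iron-sulfur cluster before ubiquinone, was at 9.39 and 8.16 in irradiated miR-21-/- tumors, 8.47 and 8.57 in irradiated miR-21+/+, 8.54 and 8.38 in untreated miR-21-/-, and 8.67 and 8.69 in untreated miR-21+/+ tumors. The 2 irradiated miR-21-/- arrays were thus the highest and the lowest of the 8 in *Ndufs7*. *Ndufv1*, the subunit that binds NADH, was 0.67 above the median of the other arrays, and *Ndufs8*, *Ndufv2* and *Ndufs3* were 0.32, 0.29 and 0.49 above it. The accessory subunit with the largest gap was *Ndufb3*, of the membrane arm, at 7.71 and 6.44 in irradiated miR-21-/- tumors, 6.09 and 5.91 in irradiated miR-21+/+, 6.35 and 5.97 in untreated miR-21-/-, and 6.28 and 6.03 in untreated miR-21+/+ tumors. Both irradiated miR-21-/- arrays exceeded the other 6 in *Ndufb3*. *Ndufab1*, the mitochondrial acyl carrier protein, was 0.50 above the median of the others. The 6 complex I subunits that did not peak there were *Ndufa11*, *Ndufb2*, *Ndufb5*, *Ndufb11*, *Ndufc2* and *Ndufs5*, within 0.17 of that median, and the assembly factor *Ndufaf2* was 0.04 above it.

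In complex III, 6 of 7 genes were highest on replicate 1. The core proteins *Uqcrc1* and *Uqcrc2* were 0.73 and 0.56 above the median of the other arrays, the Rieske iron-sulfur protein *Uqcrfs1* 0.52, the hinge protein *Uqcrh* 0.66, and the accessory subunits *Uqcr11* and *Uqcrq* 0.60 and 1.10. *Uqcrq* was at 6.89 and 5.79 in irradiated miR-21-/- tumors, 5.93 and 5.77 in irradiated miR-21+/+, 5.96 and 5.73 in untreated miR-21-/-, and 6.08 and 5.74 in untreated miR-21+/+ tumors. The exception was *Uqcrb*, a ubiquinone-binding accessory subunit read by 1 probe set, which was at 4.41 and 5.01 in irradiated miR-21-/- tumors, 4.86 and 4.19 in irradiated miR-21+/+, 4.65 and 5.196 in untreated miR-21-/-, and 5.26 and 5.70 in untreated miR-21+/+ tumors.

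Complex IV was the most mixed, with 13 of 19 genes highest on replicate 1 and a median gap of 0.32. Most of the subunits made in many tissues were among the 13, and *Cox5b* and *Cox7b* were not. *Cox4i1*, the usual form of the largest nuclear subunit, was at 10.19 and 9.16 in irradiated miR-21-/- tumors, 9.12 and 9.23 in irradiated miR-21+/+, 9.26 and 9.08 in untreated miR-21-/-, and 9.14 and 9.003 in untreated miR-21+/+ tumors. *Cox5a*, *Cox6a1*, *Cox6b1*, *Cox7c*, *Cox8a* and *Ndufa4* were 0.95, 0.55, 0.46, 0.53, 0.74 and 0.30 above the median of the other arrays. *Cox5b*, the partner of *Cox5a* in the complex, was at 5.64 and 5.15 in irradiated miR-21-/- tumors, 5.71 and 5.64 in irradiated miR-21+/+, 5.60 and 5.57 in untreated miR-21-/-, and 5.59 and 5.71 in untreated miR-21+/+ tumors. *Cox7b*, the common isoform of its family, was 0.27 below the median of the other arrays on replicate 1, at 5.24 and 5.63 in irradiated miR-21-/- tumors, 5.25 and 5.50 in irradiated miR-21+/+, 5.54 and 5.19 in untreated miR-21-/-, and 5.74 and 5.40 in untreated miR-21+/+ tumors. *Cox7a2l*, which helps join complexes III and IV, was 0.28 above that median.

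Of the 8 restricted isoforms, 4 were highest on replicate 1 (*Cox8b*, *Cox6b2*, *Ndufa4l2* and *Cox7b2*), as were 48 of the 57 other subunits. *Cox8b*, the form found in heart, muscle and brown fat, had by far the largest gap of the 70 genes. It was at 8.38 and 4.10 in irradiated miR-21-/- tumors, 3.66 and 4.72 in irradiated miR-21+/+ tumors, 5.06 and 4.98 in untreated miR-21-/- tumors, and 3.04 and 3.97 in untreated miR-21+/+ tumors. Replicate 1 was thus 4.28 above the median of the others, while replicate 2 lay inside their range. Of the 4 *Cox8b* probe sets, 3 read 9.13 to 9.51 on replicate 1, and the fourth, which differed little between arrays, read 5.44. The other isoform of the same tissues, *Cox7a1*, was at 5.41 and 5.55 in irradiated miR-21-/- tumors, 5.51 and 5.999 in irradiated miR-21+/+, 5.96 and 5.44 in untreated miR-21-/-, and 5.51 and 5.35 in untreated miR-21+/+ tumors, and so was not raised on the array where *Cox8b* peaked.

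Other isoforms had other patterns. *Cox6b2*, known from testis, was at 6.41 and 5.06 in irradiated miR-21-/- tumors, 5.62 and 4.43 in irradiated miR-21+/+, 4.40 and 4.69 in untreated miR-21-/-, and 4.72 and 4.43 in untreated miR-21+/+ tumors. *Ndufa4l2*, a gene known to be induced under low oxygen, was at 5.96 and 4.96 in irradiated miR-21-/- tumors, 4.99 and 5.27 in irradiated miR-21+/+, 4.63 and 4.21 in untreated miR-21-/-, and 5.33 and 5.01 in untreated miR-21+/+ tumors. Its 2 lowest arrays were the untreated miR-21-/- tumors. *Cox4i2*, an isoform of lung and of cells under low oxygen, was at 5.03 and 4.57 in irradiated miR-21-/- tumors, 4.92 and 4.67 in irradiated miR-21+/+, 5.08 and 5.11 in untreated miR-21-/-, and 4.92 and 4.82 in untreated miR-21+/+ tumors. Set against *Cox4i1*, which was highest on replicate 1, the *Cox4i2* difference was 0.95 below its median there, the lowest of the 8 arrays. *Cox6a2*, the heart and muscle form, was at 5.23 and 5.23 in irradiated miR-21-/- tumors, 5.28 and 5.73 in irradiated miR-21+/+, 4.81 and 4.94 in untreated miR-21-/-, and 4.52 and 5.15 in untreated miR-21+/+ tumors, so that all 4 irradiated arrays were above all 4 untreated ones. This held for the mean of its probe sets and not for most of them singly. *Cox6a2* and *Cox7a1* were both highest on irradiated miR-21+/+ replicate 2, which was also the highest array in 15 of 18 skeletal muscle markers, with a mean marker level of 5.72 against 4.42 to 4.83 elsewhere. The part of muscle tissue in these levels was not tested. The testis-type isoforms *Cox7b2* and *Cox8c* stayed between 2.32 and 3.22 on all arrays.

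**Figure D2:**
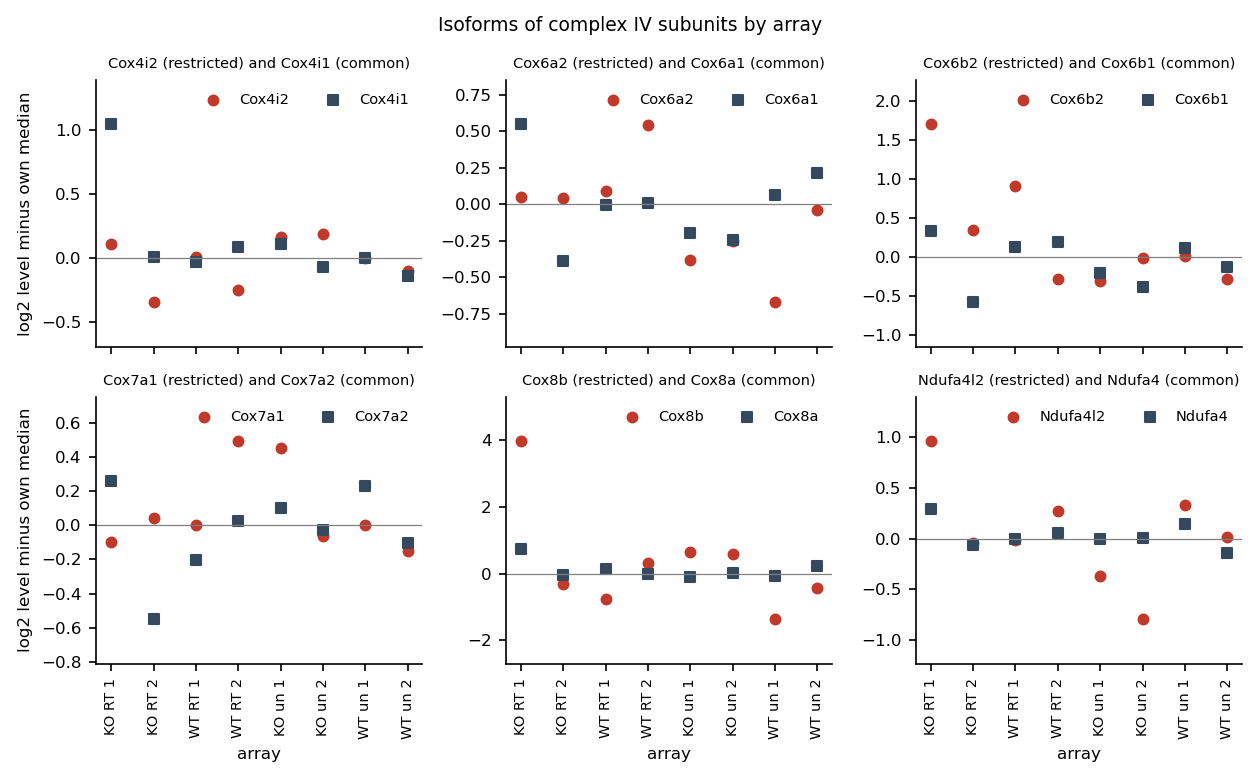
Log2 level of the restricted complex IV isoforms *Cox4i2*, *Cox6a2*, *Cox6b2*, *Cox7a1*, *Cox8b* and *Ndufa4l2* (red circles) and of their common partners (dark squares). Each is given minus the own median of that gene over the 8 arrays. The restricted *Cox7b2* and *Cox8c* are not drawn. Labels are KO for miR-21-/-, WT for miR-21+/+, RT for irradiated and un for untreated, numbered by replicate. *Cox8b* stands far above its median on irradiated miR-21-/- replicate 1, where its level was 8.38, while *Cox7a1*, at 5.41 there, lies near its own.

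The promoters of these genes are shown because 48 of 57 common subunits were highest on the same array. RefSeq windows on GRCm38.p6, from 250 bases before to 50 bases after the transcription start, were matched for 57 of the 70 genes and 53 subunits. The letters searched were GCGCATGCG for NRF1 and CCGGAAG for ETS factors such as GABP, both known regulators of respiratory genes, with AAGATGGC for YY1 and TCAAGGTCA for the estrogen-related receptors, each on both strands. The NRF1 letters are nearly their own reverse complement, so a site can match on both strands, and each gene was counted once. The upstream stretches below end at the base before the start, with the NRF1 and ETS letters in capitals. *Cox6a1* (chr5:115348959-115349138), *Ndufa8* (chr2:36049339-36049398), *Sdhd* (chr9:50603850-50603929), *Uqcrh* (chr4:116075071-116075130), *Cox6b1* (chr7:30626115-30626174) and *Cox8b* (chr7:140900447-140900526) lie on the minus strand and *Ndufb3* (chr1:58586317-58586396) on the plus strand, and each is printed in the direction of its gene.
Cox6a1: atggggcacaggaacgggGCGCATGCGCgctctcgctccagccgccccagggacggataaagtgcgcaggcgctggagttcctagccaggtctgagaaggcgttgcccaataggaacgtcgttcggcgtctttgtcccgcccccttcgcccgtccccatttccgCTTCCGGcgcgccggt
Ndufa8: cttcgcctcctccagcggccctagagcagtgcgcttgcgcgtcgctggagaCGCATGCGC
Sdhd: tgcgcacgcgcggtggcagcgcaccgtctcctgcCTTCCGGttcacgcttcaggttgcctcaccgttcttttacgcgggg
Uqcrh: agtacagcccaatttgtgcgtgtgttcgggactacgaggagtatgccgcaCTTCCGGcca
Cox6b1: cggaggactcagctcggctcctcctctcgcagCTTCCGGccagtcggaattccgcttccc
Cox8b: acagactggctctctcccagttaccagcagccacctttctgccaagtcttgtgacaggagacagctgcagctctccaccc
Ndufb3: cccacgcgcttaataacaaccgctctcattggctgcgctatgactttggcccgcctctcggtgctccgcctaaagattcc

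The NRF1 letters were found in 5 of 53 subunits (9.43%), *Ndufa8*, *Ndufa11*, *Uqcr11*, *Uqcrc1* and *Cox6a1*, against 1.95% of 27025 genes with such a window. The ETS letters were found in 11 subunits (20.8%, against 9.93%), the YY1 letters in 7 (13.2%, against 3.19%) and those of the estrogen-related receptors in 1, *Sdhd* (1.89%, against 0.466%). None of the 4 motifs was found in the 4 restricted isoforms that had a window, and the *Cox8b* and *Ndufb3* stretches printed above hold none. Whether the letters go with the levels on replicate 1 was not tested. A match describes letters only, and no binding was measured here.

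In irradiated tumors, miR-21-/- against miR-21+/+, 57 of the 70 chain genes had a positive log2 fold change, with a median of 0.20 against 0.00 for all genes, and no single gene passed the test. By complex the medians were 0.22 for I, 0.44 for II, 0.24 for III and 0.09 for IV. None of the 70 genes passed an adjusted p of 0.05 in limma, which 0.406% of all genes did. The threshold of a 2-fold change together with an unadjusted p under 0.05, met by 3.96% of all genes, was met by 1 chain gene, *Ndufb3*, with a log2 fold change of 1.07 ± 0.38 (SE, adjusted p = 0.283). The largest fold change, of *Cox8b*, was 2.06 ± 1.17 (adjusted p = 0.472). *Cox6b2*, *Sdhb* and *Ndufa7* followed at 0.71, 0.52 and 0.50 (adjusted p = 0.570, 0.422 and 0.360), and *Cox6b1*, *Cox5b*, *Cox7a1*, *Cox6a2* and *Ndufb5* were at the other end, at −0.29, −0.28, −0.28, −0.27 and −0.15. Both miR-21-/- arrays were above both miR-21+/+ arrays in 14 of the 70 genes, against 18.9% of all genes, and below them in 2, *Cox5b* and *Cox6a2*, against 22.6%.

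That positive median rested on 1 array. With replicate 1 left out, an alternative chosen after seeing the data, the median over the 70 genes was −0.10 with 25 positive and 45 negative. The complex medians were then −0.05 for I, 0.00 for II, −0.11 for III and −0.16 for IV. *Cox8b* was then at −0.08, *Sdhb* at 0.12 and *Ndufb3* at 0.44. With replicate 2 left out instead, the median was 0.49 and 16 of the 70 genes (22.9%) passed an adjusted p of 0.05 in limma, as did 16.02% of all genes, all from a single miR-21-/- array whose spread was assumed to be that of the other groups. Replicate 2 alone was above both irradiated miR-21+/+ arrays in 18 of the 70 genes (37.2% of all genes) and below both in 34 (37.4% of all genes).

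**Figure D3:**
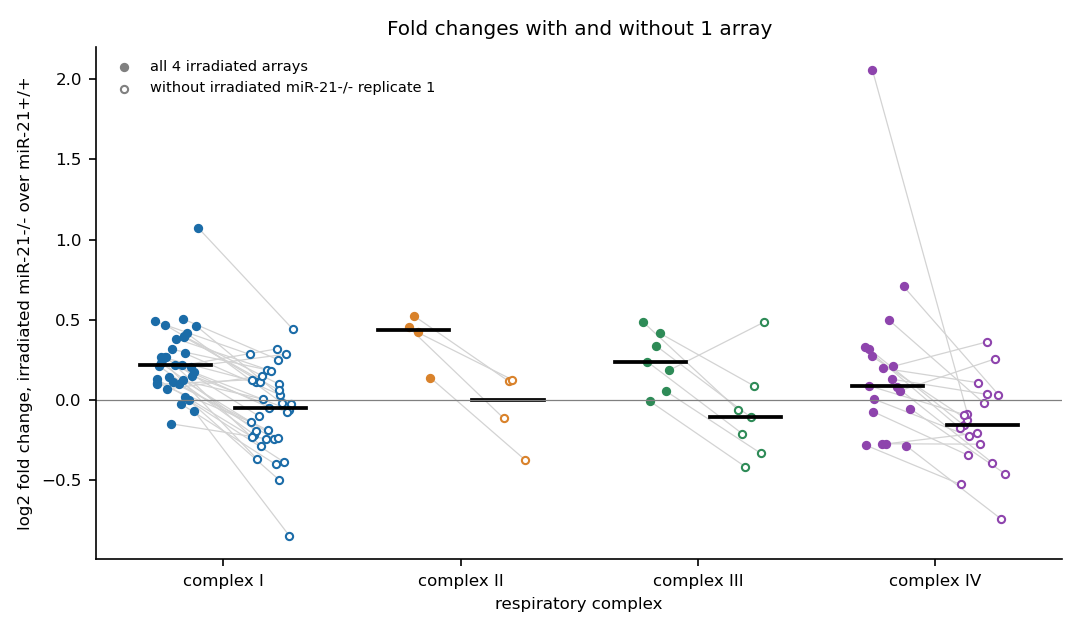
Log2 fold change (vertical axis) of each of the 65 chain subunits in irradiated miR-21-/- over irradiated miR-21+/+ tumors, by respiratory complex (horizontal axis). Filled points use all irradiated arrays, and open points leave out irradiated miR-21-/- replicate 1. Grey lines join the points of each gene, and bars mark the median of each complex. Of the 65 subunits, 54 were above 0 with all arrays and 41 were below 0 without replicate 1. *Cox8b* is at 2.06 and −0.08.

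Irradiated against untreated miR-21-/- tumors shared that array and gave the same picture. The median over the 70 genes was 0.18, with 56 positive, against −0.04 for all genes. Without replicate 1 it was −0.07, with 24 positive. No chain gene passed an adjusted p of 0.05 (0.013% of all genes did), and 2 passed the fold change of 2 with an unadjusted p under 0.05 (3.04% of all genes). These were *Cox6b2*, at 1.19 ± 0.50 (adjusted p = 0.450), and *Ndufa4l2*, at 1.04 ± 0.34 (adjusted p = 0.369). *Cox8b*, *Ndufb3* and *Cox5a* were at 1.22, 0.92 and 0.69, and *Cox4i2*, *Cox7a1*, *Uqcrb*, *Cox5b* and *Cox7a2* at −0.29, −0.23, −0.22, −0.19 and −0.18. Both irradiated arrays were above both untreated arrays in 13 of the 70 genes (16.4% of all genes) and below them in 1, *Cox4i2* (23.8% of all genes). Without replicate 1, *Cox6b2* was at 0.51 and *Ndufa4l2* at 0.53, and replicate 2 alone was above both untreated arrays in 17 genes and below both in 36, against 33.6% and 39.0% of all genes.

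The test of whether radiation acted differently in the genotypes, the radiation effect in miR-21-/- minus that in miR-21+/+ tumors, called no chain gene at an adjusted p of 0.05 (0.00432% of all genes) and none at a fold change of 2 with an unadjusted p under 0.05 (3.91% of all genes). The median difference was 0.25, with 57 of 70 positive, and −0.06 with 29 positive without replicate 1. The highest values were those of *Ndufa4l2* (1.08 ± 0.48, adjusted p = 0.633), *Ndufb3* (1.07 ± 0.54, adjusted p = 0.662), *Uqcrb* and *Cox6b2* (both 0.74) and *Cox5a* (0.73), and the lowest those of *Cox7a1* (−0.55), *Cox6a2* (−0.32), *Ndufa13* (−0.26), *Cox4i2* (−0.22) and *Cox5b* (−0.21).

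In untreated tumors, miR-21-/- against miR-21+/+, which use none of the irradiated arrays for their means, the chain genes were centred near 0. The median was −0.04, with 27 positive and 43 negative, against 0.03 for all genes. No chain gene passed an adjusted p of 0.05 (0.423% of all genes) or the fold change of 2 with an unadjusted p under 0.05 (3.11% of all genes). The extremes were *Cox8b* at 1.51 ± 1.17 (adjusted p = 0.650) and *Ndufa4l2* at −0.75 ± 0.34 (adjusted p = 0.404), and in both genes the 2 groups did not overlap. *Ndufa6*, *Ndufb11*, *Cox7b2* and *Cox7a1* were at 0.50, 0.32, 0.30 and 0.27, and *Uqcrb*, *Ndufb9*, *Ndufaf3* and *Cox5a* at −0.55, −0.44, −0.43 and −0.41. The groups did not overlap in 10 genes that were higher (27.7% of all genes) and 17 that were lower (24.4% of all genes). The lower ones included *Uqcrc1*, *Uqcrfs1*, *Ndufs7*, *Ndufs8*, *Cox5a*, *Cox6a1* and *Cox6b1*. With limma run on the 4 untreated arrays alone, 1 chain gene passed, *Cox8b* (adjusted p = 0.0243), as did 5.23% of all genes. Of the 6 *Ndufa4l2* probe sets 4 were lower and 2 higher in untreated miR-21-/- tumors. Their median gave −1.18, past the 2-fold threshold (adjusted p = 0.239), and the brightest alone gave 0.19.

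In miR-21+/+ tumors, irradiated against untreated, the chain genes were again centred near 0, with a median of −0.04, 30 positive and 40 negative, against 0.00 for all genes. None passed an adjusted p of 0.05 (0.212% of all genes) or the fold change of 2 with an unadjusted p under 0.05 (2.1% of all genes). Here too the standard errors included the gap between the irradiated miR-21-/- arrays. *Uqcrb* was lowest at −0.96 ± 0.33 (adjusted p = 0.426), followed by *Ndufa5*, *Ndufa2*, *Ndufb4* and *Ndufa7* at −0.44, −0.40, −0.36 and −0.35. The highest were *Cox8b*, *Cox6a2*, *Cox6b2*, *Cox7a1* and *Ndufb6* at 0.68, 0.67, 0.45, 0.32 and 0.29, of which *Cox6a2* had an adjusted p of 0.481. The groups did not overlap in 6 genes that were higher (22.4% of all genes) and 13 that were lower (22.3% of all genes). The lower ones were 8 complex I subunits, *Sdhb*, *Sdhd*, *Uqcrb*, *Cox6a1* and *Cox8c*.

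Averaged over irradiated and untreated tumors, no chain gene passed either threshold for genotype. The share with all miR-21-/- arrays above all miR-21+/+ arrays was near that of all genes (4.29% against 4.13%), and no chain gene had them all below. The median effect, miR-21-/- minus miR-21+/+, was 0.08, with 48 positive, against 0.02 for all genes, and −0.06 with 26 positive without replicate 1. The thresholds were passed by 2.34% of all genes (adjusted p of 0.05) and 1.96% (fold change of 2 with an unadjusted p under 0.05). All 4 miR-21-/- arrays were above all 4 miR-21+/+ arrays in *Ndufa3*, *Ndufa6* and *Sdhb* (4.13% of all genes) and below them in none of the 70 (6.14% of all genes). *Ndufa6*, an accessory subunit of complex I, was at 9.69 and 8.98 in irradiated miR-21-/- tumors, 8.86 and 8.87 in irradiated miR-21+/+, 9.21 and 9.07 in untreated miR-21-/-, and 8.73 and 8.56 in untreated miR-21+/+ tumors, with an effect of 0.48 ± 0.17 (adjusted p = 0.208). *Ndufa3*, another accessory subunit, was at 9.25 and 8.94 in irradiated miR-21-/- tumors, 8.82 and 8.83 in irradiated miR-21+/+, 8.93 and 8.89 in untreated miR-21-/-, and 8.70 and 8.85 in untreated miR-21+/+ tumors, with an effect of 0.20 (adjusted p = 0.459). The effect of *Sdhb* was 0.30 (adjusted p = 0.462). *Cox8b* and *Ndufb3* had the largest positive values, 1.78 ± 0.83 and 0.54 ± 0.27 (adjusted p = 0.325 and 0.362), *Cox6b2* and *Uqcrh* were at 0.34 and 0.33, and *Cox6b1*, *Ndufaf3*, *Ndufb9*, *Cox7c* and *Ndufa4l2* the lowest, −0.29, −0.26, −0.25, −0.23 and −0.21. Without replicate 1 only the same 3 genes separated the genotypes upward (8.59% of all genes), which they had to, since leaving out an array cannot undo a separation. Downward, 8 genes then separated them (8.90% of all genes), among them *Cox6a1*, *Cox6b1*, *Cox7c* and *Uqcrfs1*.

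Averaged over the genotypes, the effect of radiation called no chain gene at an adjusted p of 0.05 (0.307% of all genes) or at a fold change of 2 with an unadjusted p under 0.05 (1.14% of all genes). The median was 0.09, with 47 positive, against −0.01 for all genes, and −0.05 with 28 positive without replicate 1. *Cox6a2* was the only chain gene in which all irradiated arrays were above all untreated ones (1.97% of all genes), with an effect of 0.52 ± 0.18 (adjusted p = 0.342), and none had all irradiated arrays below (2.76% of all genes). Most *Cox6a2* probe sets alone did not separate these arrays. The averaged levels came close, at 5.23 on the lowest irradiated array and 5.15 on the highest untreated array. *Cox8b*, *Cox6b2*, *Ndufa4l2* and *Ndufb6* were at 0.95, 0.82, 0.50 and 0.47, and *Uqcrb* was lowest at −0.59 ± 0.23 (adjusted p = 0.412), followed by *Cox4i2*, *Cox7a2*, *Ndufb11* and *Ndufb4* at −0.18, −0.17, −0.15 and −0.15.

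Genes whose products work beside the chain were compared on the same array. Of the 17 measured genes of the citric acid cycle and pyruvate dehydrogenase, which supply its electrons, 15 were highest on irradiated miR-21-/- replicate 1, by a median of 0.74 over the other arrays. Citrate synthase, *Cs*, was at 9.77 and 8.25 in irradiated miR-21-/- tumors, 8.66 and 8.79 in irradiated miR-21+/+, 8.45 and 8.56 in untreated miR-21-/-, and 9.13 and 8.90 in untreated miR-21+/+ tumors. Replicate 2 was lower than the 6 arrays of the other groups in 8 of the 17 genes, *Cs* among them. The 10 measured chain subunits encoded in mitochondrial DNA were also all highest on replicate 1, but by a median of only 0.17, as in *COX1* at 13.07 and 12.97 in irradiated miR-21-/- tumors, 12.99 and 12.92 in irradiated miR-21+/+, 13.00 and 12.92 in untreated miR-21-/-, and 12.99 and 12.97 in untreated miR-21+/+ tumors. Cytochrome c and other complex III or IV genes outside the rule peaked there in 11 of 23 genes (47.8%), and assembly genes of complexes I and II outside the rule in 5 of 9 (55.6%). ATP synthase, which uses the proton gradient, peaked there in 5 of 18 genes, mitochondrial carriers and import in 5 of 17, and the large subunit of the mitochondrial ribosome in 9 of 46 (19.6%), a share near the 20.3% of all genes. Among regulators of mitochondrial genes 5 of 19 (26.3%) were highest there and 6 (31.6%) lowest, against 20.3% and 24.8% of all genes. Of those at their highest, *Ppara*, a receptor that switches on fatty acid oxidation, was at 6.54 against 4.13 to 4.45 elsewhere, and the coactivator *Ppargc1b* at 6.49 against 4.77 to 5.51. *Nrf1* was at 5.999 on this array and 6.05 to 6.72 elsewhere.

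Markers of several cell types moved with replicate 1 as well. Besides the 16 white adipocyte markers, 10 of 14 brown adipocyte markers were highest there, with a mean level of 5.51 against 4.45 to 4.67 elsewhere. *Ucp1*, the uncoupling protein that defines brown fat, was at 7.002 against 3.47 to 3.98, and *Cidea* at 8.58 against 4.64 to 6.60. Fibroblast markers peaked there in 16 of 19 genes, endothelial markers in 13 of 14 and pericyte markers in 10 of 12. Proliferation genes were lowest there in 15 of 22, and among the other 7 arrays irradiated miR-21-/- replicate 2 was lowest in all 22. The part of these cells in the chain gene levels was not tested.

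**Figure D4:**
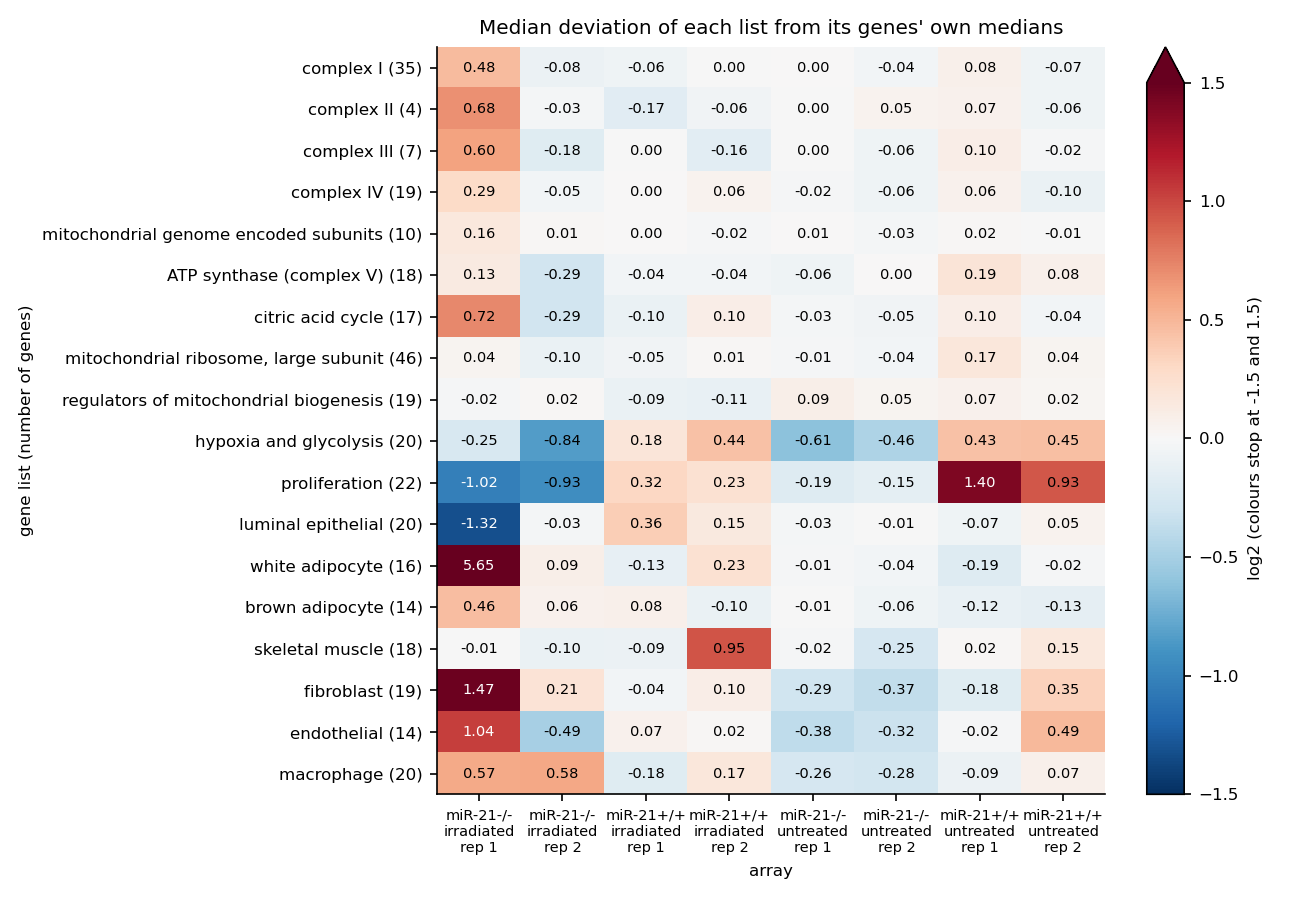
Median deviation of each gene list from its genes' own medians over the 8 arrays, in log2 units (colour and printed number), with lists down the page and arrays across it, irradiated miR-21-/- first. The white adipocyte list stands at 5.65 on irradiated miR-21-/- replicate 1, and complexes I to IV are positive on that array.

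Some genes of other lists passed the test between the genotypes from all 8 arrays, and proliferation genes did so most often. For the mean effect of genotype, 21 of 22 proliferation genes passed an adjusted p of 0.05, all lower in miR-21-/- tumors, with a median of −1.29, and luminal markers had negative values in 17 of 20 genes, 1 of which passed. The luminal values came mostly from the irradiated tumors, where replicate 1 of miR-21-/- was below all other arrays in 16 of 20 genes. The luminal median was −0.91 between the irradiated genotypes and −0.10 between the untreated ones, with 9 positive and 11 negative. In the untreated tumors 1 luminal marker passed, *Muc1*, and it was higher in miR-21-/- (2.44, limma adjusted p = 0.0186). In the same comparison 9 of 20 genes of glycolysis and the low-oxygen response passed an adjusted p of 0.05 and 19 of 20 were negative, with a median of −0.98. The glucose transporter *Slc2a1* was at 7.17 and 7.76 in irradiated miR-21-/- tumors, 9.34 and 9.51 in irradiated miR-21+/+, 7.35 and 7.34 in untreated miR-21-/-, and 9.01 and 9.37 in untreated miR-21+/+ tumors, an effect of −1.90 ± 0.17 (adjusted p = 0.00933). All 4 miR-21-/- arrays were thus lower than all 4 miR-21+/+ arrays. *Atp5h*, a subunit of the ATP synthase stalk, was the only one of 18 ATP synthase genes to pass, at −1.19 ± 0.14 (adjusted p = 0.0111), and *Mrpl38* and *Mrpl12* of the mitochondrial ribosome passed at −1.22 and −1.16 (adjusted p = 0.0113 and 0.0226). These 3 genes lie on chromosome 11, as do some of the called proliferation genes. The share of called genes on each chromosome was not counted, and a part of gene location in the calls was not tested. No citric acid cycle gene passed. These calls depended on single arrays. Over all genes, 542 were called for genotype from 8 arrays, 0 without untreated miR-21-/- replicate 1, untreated miR-21-/- replicate 2 or irradiated miR-21+/+ replicate 2, 3 without irradiated miR-21+/+ replicate 1, 6 without untreated miR-21+/+ replicate 1 and 226 without untreated miR-21+/+ replicate 2, against 1507 and 3600 without irradiated miR-21-/- replicate 1 and replicate 2.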

How the data were processed

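Gene expression was measured on 8 Affymetrix arrays from total tumor RNA. Per the labels, the authors deposited exon-level log2 signals, which RMA produced (background correction, quantile normalization and summary by median polish) within Affymetrix Expression Console 1.4, and named Transcriptome Analysis Console 3.1. RMA's between-array normalization makes each value relative to the other genes on its array, so a shift of all genes together cannot be seen.

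Of 269751 probe sets, 233753 had 1 gene symbol in the platform annotation, and the log2 values of each gene's probe sets were averaged (median 8 per gene). Probe sets with several symbols (5139) or none (30859) were left out, and no low-level filter was used. All 70 chain genes matched RefSeq (GRCm38.p6). Levels of different genes were not compared. The series was fitted with limma 3.58.1 in R 4.3.3, 1 mean per group over all 8 arrays (4 residual degrees of freedom, prior 3.54), and p-values were adjusted by Benjamini-Hochberg over 23152 genes. All groups shared 1 variance per gene, so the gap between the irradiated miR-21-/- arrays entered the standard errors of every comparison. A 2-fold change together with an unadjusted p under 0.05 is the threshold of the study's methods. The fit was also run on simulated data with independent normal noise and no array set apart, which cannot show how the tests behave on these arrays. Python 3.11.15 with numpy 2.4.6, pandas 2.3.3 and matplotlib 3.10.9 made the tables and figures.

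Members, lists, tests and named genes were chosen with earlier results of these data known. The text names any gene past a threshold and, in each comparison, the 5 genes at either end of the fold changes, with all isoforms, complex II and core subunits. Alternatives covered variance moderation, array scaling, probe set summary, array weights, a replicate block, the genes tested, and each array left out. From the other lists, at most 3 genes were named by smallest p in a comparison; those given as array levels were picked after their values were seen.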

Additional observations from a re-analysis of the deposited data

Results flagged for a closer look

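Within groups of 4 arrays, 11 of 56 sets of values had 1 array far from the rest, by the ratio of its gap to the nearest array over the whole range. Independent sets drawn from 1 population would give about 1 in 20, or 2.8 of 56. That count is no measure of chance here, since the sets share arrays and genes and each holds 2 groups. The single genes were also picked by their fold changes or p-values (limma) in these data. Irradiated miR-21-/- replicate 1 was the array in 9 of the 11. For the median of all 70 chain genes the ratio was 0.882 among the miR-21-/- arrays and 0.847 among the irradiated arrays. It was 0.848 and 0.858 for complex I, 0.882 and 0.838 for complex II in the same 2 sets, and 0.878 for complex IV among the miR-21-/- arrays. Among single genes the ratio was 0.856 for *Ndufa6* among the irradiated arrays and 0.925 for *Ndufaf3* among the miR-21-/- arrays. The other 2 were *Cox4i2*, low on irradiated miR-21-/- replicate 2 (0.861 among the miR-21-/- arrays), and *Cox6a2*, high on irradiated miR-21+/+ replicate 2 (0.901 among the irradiated arrays).

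*Ndufa5*, a complex I accessory subunit, differed between the genotypes in opposite directions with and without radiation. It was at 6.86 and 6.44 in irradiated miR-21-/- tumors, above 6.36 and 5.95 in irradiated miR-21+/+ tumors, and at 6.38 and 6.55 in untreated miR-21-/- tumors, below 6.59 and 6.60 in untreated miR-21+/+ tumors. The difference between these effects was 0.62 (log2) and did not pass the test (limma, adjusted p = 0.661).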

How the results depend on the processing

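Leaving out 1 array at a time moved the median log2 fold change of the 70 genes between −0.10 and 0.49 for irradiated miR-21-/- against irradiated miR-21+/+ tumors, between −0.073 and 0.52 for irradiated against untreated miR-21-/- tumors, and between −0.064 and 0.53 for the difference of the radiation effects, with irradiated miR-21-/- replicate 1 absent at the low end and replicate 2 at the high end. The number of chain genes at an adjusted p under 0.05 (limma), 0 from all arrays, ranged between 0 and 16, 0 and 19, and 0 and 11 in these comparisons, between 0 and 6 for the mean effect of genotype and between 0 and 10 for that of radiation. It was highest without replicate 2, where 16.02%, 15.56%, 10.90%, 15.55% and 12.83% of all genes were called in the same order, and without replicate 1 it was 1 for genotype (*Ndufb9* at −0.64, adjusted p = 0.0336; 6.51% of all genes). On the 4 untreated arrays alone it was 1 (5.23% of all genes). At an unadjusted p under 0.05 there were 2 chain genes for the irradiated genotypes (13.8% of all genes), 0 for the untreated genotypes (13.2%), 3 for radiation in miR-21-/- tumors (11.0%), 2 for it in miR-21+/+ tumors (8.88%), 0 for the difference (8.03%), 1 for genotype (17.4%) and 2 for radiation (11.1%). The shared variance held the wide gap of chain genes between the irradiated miR-21-/- arrays, so these low counts are no measure of stability.

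Single genes changed direction under some settings. With 1 array left out at a time, the log2 fold change of *Cox8b* was between −0.084 and 4.195 for the irradiated genotypes, −0.92 and 3.36 for radiation in miR-21-/- tumors and −0.12 and 2.02 for radiation averaged over the genotypes, each lowest without irradiated miR-21-/- replicate 1. That of *Cox6b1* was between −0.74 and 0.17 for the irradiated genotypes (0.17 without replicate 2), and that of *Cox7a1* between −0.49 and 0.035 for radiation in miR-21-/- tumors (0.035 without untreated miR-21-/- replicate 1). With the brightest probe set, *Cox5b* was at 0.47 between the irradiated genotypes, and *Ndufa4l2* at 0.19 between the untreated genotypes, −0.26 for radiation in miR-21-/- tumors and −0.40 for the difference. With the median of the probe sets, *Ndufa7* was at −0.090 between the irradiated genotypes and *Cox4i2* at 0.15 for radiation in miR-21-/- tumors. The causes were not tested.

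With a replicate block no chain gene passed an adjusted p of 0.05 in any of the 7 comparisons. At a 2-fold change with an unadjusted p under 0.05, *Ndufb3*, *Cox6b2* and *Ndufa4l2* passed where they did without the block, and *Ndufb3* and *Ndufa4l2* passed also for the difference (1.07 and 1.08). Calls over all genes were then 0 in irradiated tumors (94 without the block), 34 in untreated tumors (98), 0 for radiation in miR-21-/- tumors (3), 32 in miR-21+/+ tumors (49), 0 for the difference (1), 313 for genotype (542) and 19 for radiation (71). Deviations of arrays with the same number correlated between −0.13 and 0.04 over all genes, which shows no pairing by number but cannot exclude it. Precision was limited by having 2 arrays per group, with 1 of the 8 arrays apart from the rest.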
